A study of Arabidopsis thaliana with 8 samples.

Results

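The ERECTA receptors and their SERK partners were followed as 7 genes of Arabidopsis thaliana, chosen by gene identifier from the 33977 genes of the deposited table: the receptor kinase genes ER (ERECTA, AT2G26330), ERL1 (AT5G62230) and ERL2 (AT5G07180), the receptor-like protein gene TMM (TOO MANY MOUTHS, AT1G80080), and the co-receptor kinase genes SERK1 (AT1G71830), SERK2 (AT1G34210) and BAK1 (AT4G33430, also named SERK3). RNA was sequenced from pooled whole floral buds of stages 8 to 10 of wild type (WT) and of transgenic line 4-3 (pSTK::amiRNACWIN24, shortened to amiRNACWIN24), with 4 biological replicates each. In that line the promoter of STK, a MADS box gene of ovule identity, drives an artificial microRNA whose name points to CWINV2 and CWINV4, genes of invertases in the cell wall. The promoter is active in a small part of the bud while whole buds were sampled, and 1 transgenic line stands for the genotype. The series asks which transcripts differ when invertase is targeted at the start of ovule formation, and the same is asked here of these 7 genes. Levels are RPKM, which are reads scaled by transcript length and by library size. All 7 genes passed the filter of a mean of at least 1 RPKM.

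ER, ERL1 and ERL2 are plasma membrane kinases with leucine-rich repeats outside the cell, where they bind secreted peptides of the EPF and EPFL family. They act with overlapping roles in the elongation of stems and pedicels, in the growth of floral organs and ovule integuments, and in the spacing of stomata. TMM has leucine-rich repeats but no kinase domain and pairs with these receptors, best known from the stomatal lineage. SERK proteins are short co-receptor kinases that join many ligand-binding receptors, and the signal of the ERECTA receptors passes to a MAP kinase cascade that begins with YODA (YDA).

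The RPKM of related genes can be told apart only where reads differ between them. Stretches centred on the longest run shared by each of the closest pairs are therefore shown first. ERL1 and ERL2 had 82.7% identical bases over their aligned coding sequence, SERK1 and SERK2 79.6%, and ER 65.7% and 66.3% with ERL1 and ERL2. Below are 125 coding bases, the length of 1 read, from each of the closest pairs in the TAIR10.1 genome, with the longest run that the pair shares in capitals.
ERL1 (chr5:24997384-24997684, plus strand, spliced): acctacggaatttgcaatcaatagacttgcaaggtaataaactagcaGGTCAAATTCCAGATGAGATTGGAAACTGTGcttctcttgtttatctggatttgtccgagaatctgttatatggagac
ERL2 (chr5:2232146-2232444, minus strand, spliced): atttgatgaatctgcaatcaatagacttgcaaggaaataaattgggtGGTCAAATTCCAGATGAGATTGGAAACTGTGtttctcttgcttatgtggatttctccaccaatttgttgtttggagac
SERK1 (chr1:27020071-27020325, plus strand, spliced): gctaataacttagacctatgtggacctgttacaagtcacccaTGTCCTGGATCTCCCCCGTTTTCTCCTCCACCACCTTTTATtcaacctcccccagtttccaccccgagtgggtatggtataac
SERK2 (chr1:12460972-12461283, plus strand, spliced): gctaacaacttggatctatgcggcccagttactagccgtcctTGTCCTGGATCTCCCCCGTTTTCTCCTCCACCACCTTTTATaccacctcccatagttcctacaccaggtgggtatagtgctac
The capitals mark 31 bases in ERL1 and ERL2 and 41 bases in SERK1 and SERK2. In these stretches 21 of 125 bases differed between ERL1 and ERL2 and 24 of 125 between SERK1 and SERK2. They were picked by the longest run, and stretches with fewer differing bases were not searched for. Over the whole annotated exons, 0 windows of 125 bases were identical between any 2 of ER, ERL1 and ERL2 or any 2 of SERK1, SERK2 and BAK1.

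The 250 bases before the annotated start of the 3 receptor genes and of TMM are given next (TAIR10.1, read 5′ to 3′ on the strand of the gene).
ER (chr2:11214663-11214912, minus strand): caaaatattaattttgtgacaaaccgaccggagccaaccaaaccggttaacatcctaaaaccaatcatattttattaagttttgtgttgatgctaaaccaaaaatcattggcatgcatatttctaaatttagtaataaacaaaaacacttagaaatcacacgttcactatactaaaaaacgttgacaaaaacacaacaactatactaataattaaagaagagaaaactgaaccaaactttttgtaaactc
ERL1 (chr5:24995879-24996128, plus strand): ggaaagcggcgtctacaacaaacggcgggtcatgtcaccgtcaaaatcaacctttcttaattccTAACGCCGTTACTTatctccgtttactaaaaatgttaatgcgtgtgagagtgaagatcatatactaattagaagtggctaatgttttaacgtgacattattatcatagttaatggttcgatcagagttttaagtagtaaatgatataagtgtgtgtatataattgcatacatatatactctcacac
ERL2 (chr5:2233588-2233837, minus strand): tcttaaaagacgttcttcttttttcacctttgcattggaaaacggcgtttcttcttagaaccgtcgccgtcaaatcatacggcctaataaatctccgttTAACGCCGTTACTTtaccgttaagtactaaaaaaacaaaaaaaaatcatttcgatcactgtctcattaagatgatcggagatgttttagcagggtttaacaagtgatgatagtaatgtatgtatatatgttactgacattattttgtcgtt
TMM (chr1:30129650-30129899, minus strand): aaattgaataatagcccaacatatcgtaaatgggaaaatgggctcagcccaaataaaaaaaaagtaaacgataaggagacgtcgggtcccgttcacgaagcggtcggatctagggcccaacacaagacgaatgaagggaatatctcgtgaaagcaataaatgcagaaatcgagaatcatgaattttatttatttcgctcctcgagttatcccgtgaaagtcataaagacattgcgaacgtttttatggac
The capitals mark the longest run that ERL1 and ERL2 share in these windows, TAACGCCGTTACTT, 14 bases that begin 186 bases before the ERL1 start and 151 bases before the ERL2 start. This run, chosen after the windows were seen, was found on either strand in 3 of 27443 windows of protein-coding genes (0.0109%). The ERL1 and ERL2 windows that gave the run are among these 3, so the count cannot test the sharing. The longest run that ER shares was 9 bases with ERL1 (found in 1.43% of all such windows) and 10 bases with ERL2 (0.849%). Motifs searched on both strands were the G-box CACGTG (in 6.49% of all such windows), the auxin response element TGTCTC (10.9%) and the GA repeat GAGAGA (20.6%). Among the 7 genes ERL2 held 1 TGTCTC, 93 to 88 bases before its start, and SERK1 held 1 GAGAGA on the opposite strand, 194 to 189 bases before its start, and no other match was present in these windows.

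Several facts of the libraries bear on all the values. Each library held 22.5 to 26.7 M reads in genes, worked out from the RPKM steps. CWINV4 was lower in the transgenic buds (26.9 ± 2.61 RPKM against 13.8 ± 1.76 RPKM; SD, n = 4 each), CWINV2 stood at 0.104 RPKM or less except for 2.75 RPKM in WT replicate 1, and STK itself fell from 9.82 ± 1.44 to 0.599 ± 0.156 RPKM. The organ identity genes AP1, AP3, PI, AG and SEP3 summed to 742 to 912 RPKM in WT and 674 to 739 RPKM in amiRNACWIN24, with 0 of the 5 at 0. Among markers of other cells, 9 late pollen genes summed to 175 to 432 RPKM in WT and 24.7 to 43.3 RPKM in amiRNACWIN24. Of the 8 tested 6 were lower, against 21% of all tested genes. The sums of 10 tapetum genes overlapped, at 193 to 776 and 495 to 1398 RPKM. Of these 10 genes 6 were higher, against 29.4% of all tested genes, and 4 did not pass. With the length trend described below removed 1 was higher, against 15.1%. WT replicates 1 and 2 had the highest late pollen sums (385 and 432 RPKM) and the lowest tapetum sums (305 and 193 RPKM). The sums of 7 ovule genes overlapped too, at 73.4 to 96.9 and 74.8 to 104 RPKM, but the genes moved in opposite directions. STK (log2 -3.23), INO (-1.22), SHP2 (-0.35) and SPL (-0.35) were lower, ANT (0.72) and BEL1 (0.39) higher, and SHP1 did not pass. These were 4 lower and 2 higher of 7, against 21% and 29.4% of all tested genes. With the length trend removed 1 was lower (STK) and 1 higher (ANT), against 14.2% and 15.1%, and 5 did not pass. None of the 26 pollen, tapetum and ovule genes was at 0 in every library. The part of these cell types in the results below was not tested. In whole buds, fewer cells of a type and less RNA per cell cannot be told apart.

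All 3 receptor kinases and all 3 co-receptor kinases rose in amiRNACWIN24 as the values were deposited, and TMM did not pass the test. The receptors rose 1.56-fold to 1.62-fold and the SERK genes 1.30-fold to 1.40-fold. Fold changes also ran with exon length across the transcriptome, and when that trend was removed within each library 0 of these 6 kinases passed and TMM was lower. Of 7 genes tested 6 were higher and 0 lower, against 29.4% higher and 21% lower among all 19082 tested genes. With the length trend removed 0 were higher and 1 was lower, against 15.1% and 14.2%. The groups did not overlap in these 6 genes, against 27.4% of all tested genes whose transgenic libraries were all higher, and 3 of the 7 rose at least 1.5-fold, against 11.1%. Without WT replicates 1 and 2 together 5 of the 7 were higher and 0 lower, against 24.5% and 19.8%. The exact two-sided permutation p was 0.029 for each of the 6 kinases, the smallest that 70 arrangements allow.

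**Figure D1:**
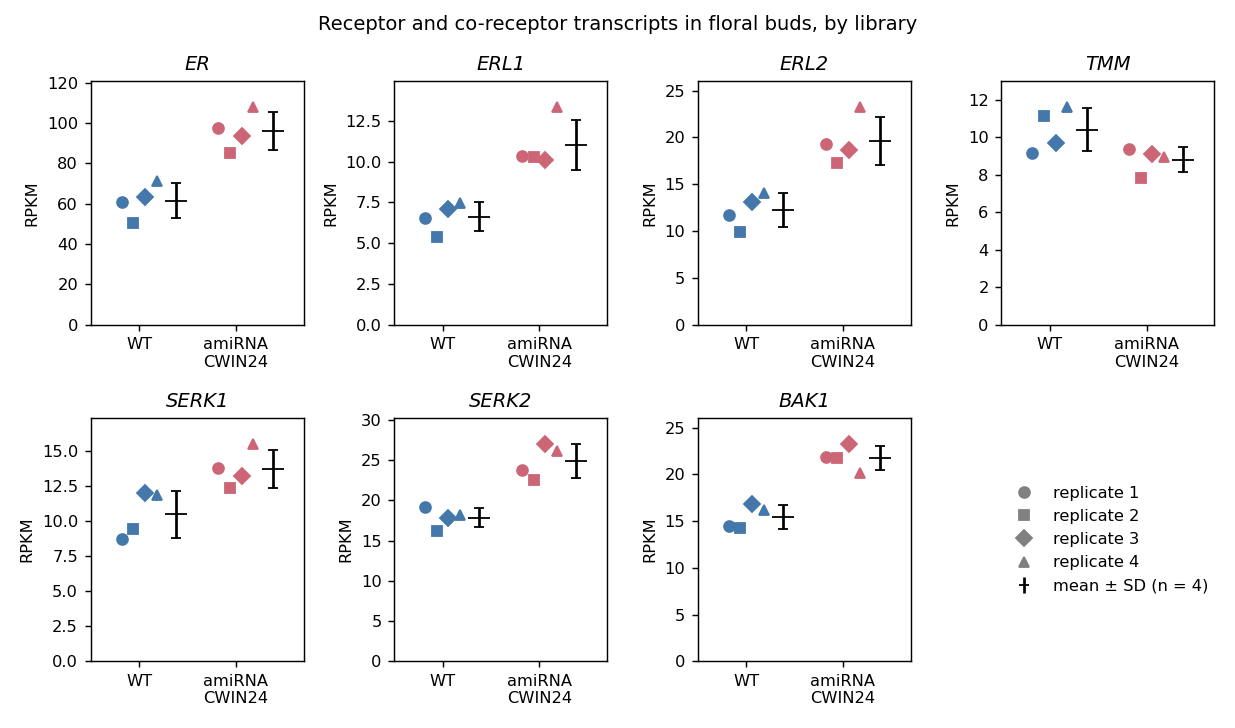
RPKM of each gene in each of the 8 libraries, by genotype; symbols mark the replicate number, and black bars the mean ± SD (n = 4). In ER, ERL1, ERL2, SERK1, SERK2 and BAK1 every amiRNACWIN24 library lies above every WT library, while the TMM groups overlap.

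ER, the founding receptor of the family, was the most abundant of the 7 genes, with a mean level above that of 93.2% of tested genes. The gene lies on chromosome 2 (11208080 to 11214662 in TAIR10, minus strand) and has 27 exons with 3985 nt in all. It stood at 60.7, 50.5, 63.4 and 71.4 RPKM in WT replicates 1 to 4, and at 97.6, 85.0, 93.5 and 108 RPKM in amiRNACWIN24 replicates 1 to 4. The lowest transgenic library was above the highest WT library. The mean went from 61.5 ± 8.64 to 96.0 ± 9.55 RPKM (SD, n = 4 each), or 0.64 as a log2 fold change (SE 0.11, 95% interval 0.39 to 0.89; limma adjusted p = 0.0011). Removal of the length trend left a log2 fold change of 0.074 (SE 0.074, 95% interval -0.093 to 0.24; limma adjusted p = 0.48).

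ERL1, a paralog with a known part in late steps of stomatal development, was the least abundant of the 3 receptors. It lies on chromosome 5 (24996129 to 25002439, plus strand) and also has 27 exons, with 3514 nt in all. Its levels were 6.56, 5.39, 7.08 and 7.47 RPKM in WT replicates 1 to 4, and 10.3, 10.3, 10.1 and 13.35 RPKM in amiRNACWIN24 replicates 1 to 4. The groups did not overlap, and amiRNACWIN24 replicate 4 stood apart from the other 3 transgenic libraries. The log2 fold change was 0.69 (SE 0.12, 95% interval 0.42 to 0.96; limma adjusted p = 0.0011), 0.60 without amiRNACWIN24 replicate 4, and 0.20 (95% interval -0.015 to 0.42; limma adjusted p = 0.14) with the length trend removed. The last 82 bp of ERL1 overlap AT5G62240 on the other strand, which itself went from 5.13 to 1.65 RPKM, and since the strand setting of the counting is not given the reads of that stretch are uncertain.

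ERL2, the remaining receptor, followed ER closely. It lies on chromosome 5 (2227439 to 2233587, minus strand), with 27 exons and 3640 nt. Its levels were 11.7, 9.93, 13.1 and 14.1 RPKM in WT replicates 1 to 4, and 19.2, 17.3, 18.6 and 23.2 RPKM in amiRNACWIN24 replicates 1 to 4. In WT the 3 receptors ranked the libraries identically, with replicate 2 lowest, then 1, 3 and 4. The same WT order held in HSL1, HSL2, EMS1 and SCRM2, genes of the lists given below, named here after their values were seen. The share of all genes with this order was not counted. In amiRNACWIN24 replicate 4 was highest for all 3, and replicate 2 was lowest for ER and ERL2 but not for ERL1. The log2 fold change of ERL2 was 0.66 (SE 0.12, 95% interval 0.39 to 0.93; limma adjusted p = 0.0015), and 0.15 (95% interval -0.057 to 0.36; limma adjusted p = 0.25) with the length trend removed.

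The make-up of the receptor family overlapped between genotypes while its sum did not. ER, ERL1 and ERL2 together went from 80.4 ± 11.3 to 127 ± 13.4 RPKM. ER made up 76.6 ± 0.480% of that sum in WT and 75.9 ± 0.950% in amiRNACWIN24, ERL2 15.2 ± 0.364% and 15.4 ± 0.429%, and ERL1 8.25 ± 0.181% and 8.70 ± 0.586% (SD, n = 4 each). The ranges of each share overlapped between genotypes. The ratio of ER to ERL2 was 4.83 to 5.19 over the WT libraries and 4.65 to 5.07 over the transgenic ones. These shares are a description of levels per length and were not tested.

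**Figure D2:**
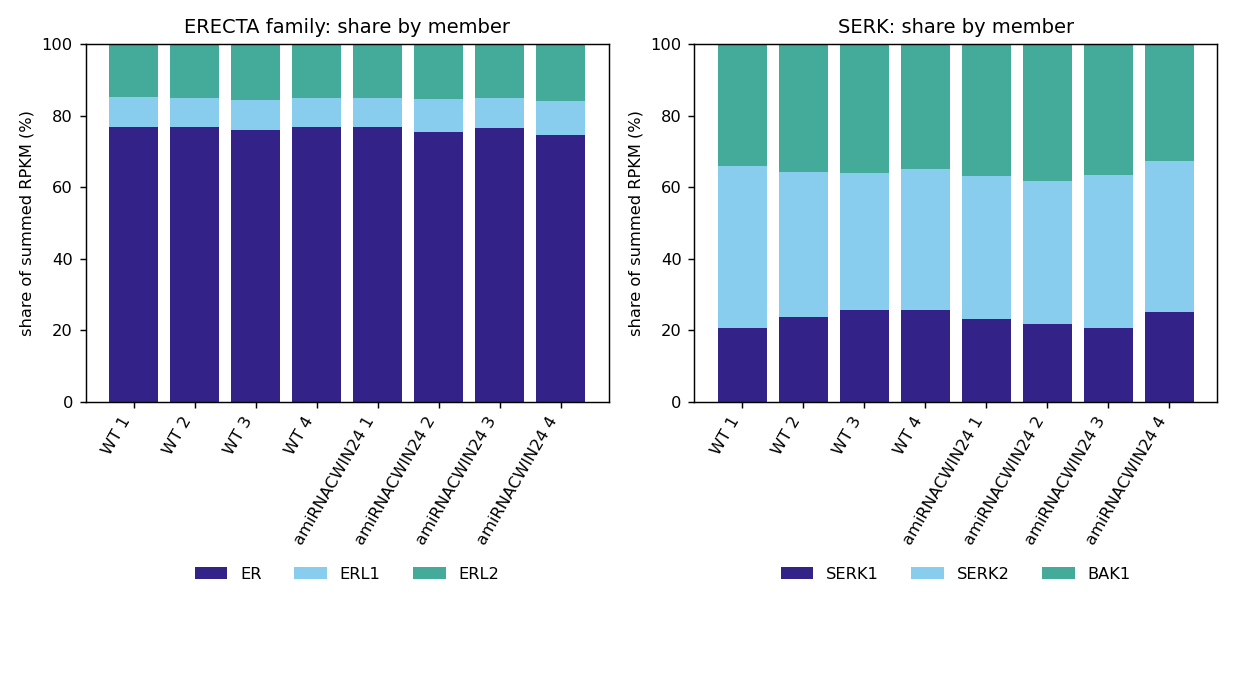
Share of each gene in the summed RPKM of the ERECTA receptors (left) and of SERK1, SERK2 and BAK1 (right), in percent, 1 bar per library. ER takes 74.7% to 76.9% of the receptor sum in all 8 libraries, and SERK2 is the largest SERK share in each.

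TMM, the partner without a kinase, did not rise with the receptors. It lies on chromosome 1 (30127819 to 30129649, minus strand) as 1 exon of 1831 nt with no intron. Its levels were 9.17, 11.1, 9.72 and 11.6 RPKM in WT replicates 1 to 4, and 9.37, 7.82, 9.12 and 8.96 RPKM in amiRNACWIN24 replicates 1 to 4. WT replicate 1 lay inside the transgenic range, so the groups overlapped. The mean went from 10.4 ± 1.15 to 8.82 ± 0.684 RPKM, a log2 fold change of -0.22 (SE 0.098, 95% interval -0.44 to -0.0070; limma adjusted p = 0.079; exact permutation p = 0.057). The test was passed with the length trend removed (log2 -0.30, 95% interval -0.46 to -0.14; limma adjusted p = 0.012), without WT replicate 1 (log2 -0.28; limma adjusted p = 0.036), with median-of-ratios scaling, quantile normalization and voom.

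Set against TMM within each library, both kinase groups stood higher in the transgenic buds. The summed receptors were 5.92 to 8.61 times the TMM level in WT and 13.4 to 16.1 times in amiRNACWIN24, and the summed SERK genes 3.59 to 4.79 times and 6.33 to 7.23 times. These ranges did not overlap. The kinases have longer exons (2554 to 3985 nt) than TMM (1831 nt), and fold change ran with exon length over all tested genes. The ratios are from RPKM as deposited, with that length trend left in. They are a description and were not tested.

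Of the co-receptors, SERK1 had the smallest and least stable difference. SERK1 and SERK2 are redundantly required for the tapetum, where they act with the receptor EMS1. SERK1 lies on chromosome 1 (27018158 to 27022117, plus strand), with 11 exons and 2570 nt. It stood at 8.69, 9.44, 11.996 and 11.8 RPKM in WT replicates 1 to 4, and at 13.8, 12.4, 13.2 and 15.5 RPKM in amiRNACWIN24 replicates 1 to 4. The groups were separated by a narrow gap, between WT replicate 3 and amiRNACWIN24 replicate 2. WT replicates 1 and 2, the lowest for SERK1, also had the lowest tapetum sums (305 and 193 RPKM), whose part in the result was not tested. The log2 fold change was 0.38 (SE 0.12, 95% interval 0.12 to 0.64; limma adjusted p = 0.022), and 0.084 (95% interval -0.13 to 0.30; limma adjusted p = 0.54) with the length trend removed. The call also ended without WT replicate 2 (log2 0.33; limma adjusted p = 0.058), without amiRNACWIN24 replicate 4 (log2 0.32; limma adjusted p = 0.062), without WT replicates 1 and 2 together (log2 0.19; limma adjusted p = 0.17) and with quantile normalization (log2 0.26; limma adjusted p = 0.051). At its 5′ end SERK1 overlaps AT1G71828 on the other strand by 158 bp, a gene with 0 reads in WT and a mean of 0.0226 RPKM in the transgenic buds.

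SERK2 was the most abundant SERK gene. It lies on chromosome 1 (12458564 to 12462905, plus strand), with 11 exons and 2554 nt. Its levels were 19.1, 16.3, 17.8 and 18.2 RPKM in WT replicates 1 to 4, and 23.7, 22.5, 27.0 and 26.2 RPKM in amiRNACWIN24 replicates 1 to 4. Every transgenic library was above every WT library. The log2 fold change was 0.47 (SE 0.085, 95% interval 0.28 to 0.65; limma adjusted p = 0.0014). With the length trend removed it was 0.18 (95% interval 0.042 to 0.31; limma adjusted p = 0.052), the nearest of the 6 kinases to the threshold.

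BAK1 is the co-receptor of the brassinosteroid receptor BRI1 and of the immune receptor FLS2. It lies on chromosome 4 (16086311 to 16090832, minus strand), with 12 exons in its longest transcript and 2876 nt. Its levels were 14.5, 14.2, 16.8 and 16.2 RPKM in WT replicates 1 to 4, and 21.9, 21.7, 23.3 and 20.2 RPKM in amiRNACWIN24 replicates 1 to 4. The groups were well apart, and unlike the other kinases BAK1 was lowest in amiRNACWIN24 replicate 4. The log2 fold change was 0.48 (SE 0.082, 95% interval 0.30 to 0.67; limma adjusted p = 0.00095), and 0.12 (95% interval -0.032 to 0.27; limma adjusted p = 0.21) with the length trend removed. SERK2 and BAK1 overlap a gene on the other strand by 57 and 78 bp at their 3′ ends.

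SERK1, SERK2 and BAK1 together went from 43.8 ± 3.20 to 60.3 ± 3.01 RPKM (SD, n = 4 each). SERK2 made up 40.9 ± 3.10% and 41.2 ± 1.51%, BAK1 35.3 ± 0.831% and 36.1 ± 2.48%, and SERK1 23.9 ± 2.43% and 22.7 ± 1.84%. As in the receptors, the ranges of each share overlapped between genotypes. Within WT the share of SERK2 ran from 38.1% in replicate 3 to 45.2% in replicate 1, the widest spread of the SERK shares. The share of SERK1 ran from 20.5% in replicate 1 to 25.7% in replicate 3, also a wider spread than that of any receptor share. The receptor sum was 1.65 to 2.01 times the SERK sum in WT and 1.93 to 2.34 times in amiRNACWIN24, overlapping ranges.

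By level per length, WT buds ranked ER first, then SERK2, BAK1, ERL2, SERK1, TMM and ERL1. The ranges over the 4 libraries separated ER from SERK2, BAK1 from ERL2 and TMM from ERL1. They overlapped between SERK2 and BAK1, ERL2 and SERK1, and SERK1 and TMM, and SERK1 exceeded TMM in 2 of 4 WT libraries. In amiRNACWIN24 the order was the same but for the last places, where ERL1 (11.02 ± 1.56 RPKM) stood above TMM (8.82 ± 0.684 RPKM) in 4 of 4 libraries. In WT, TMM (10.4 ± 1.15 RPKM) stood above ERL1 (6.63 ± 0.905 RPKM) in 4 of 4 libraries.

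The exon length of each gene was set beside its fold change, because length and fold change ran together over all tested genes. ER, ERL1 and ERL2 fall among the longest 1900 tested genes (exons of 3202 nt or more), where the median log2 fold change was 0.61 and 87.9% of genes were higher and 2.05% lower. BAK1 falls in the next length class, 2580 to 3202 nt (median 0.39, 68.8% higher, 2.69% lower), and SERK1 and SERK2 in that of 2220 to 2580 nt (median 0.27, 51% higher, 5.42% lower). Each of the 6 kinases lay above the median of its class, ER by the least, as the plot of fold change against exon length shows. TMM falls in the class of 1764 to 1969 nt, where the median was 0.11, with 21.4% of genes higher and 10.48% lower, and its value of -0.22 lay on the other side of 0. Whether the length trend comes from the libraries or from the plants was not tested.

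**Figure D3:**
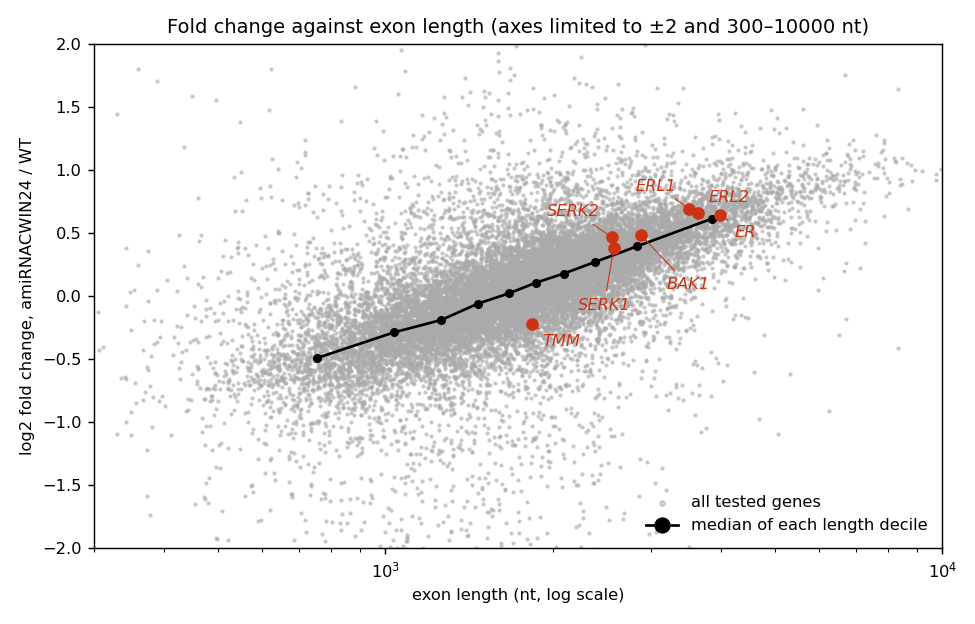
Log2 fold change (amiRNACWIN24 over WT) against exon length in nt on a log axis; grey points are tested genes, the black line joins the medians of the length classes, and red points are the 7 genes; genes beyond the axes are not drawn. The kinases lie on or slightly above the line and TMM lies below it.

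**Figure D4:**
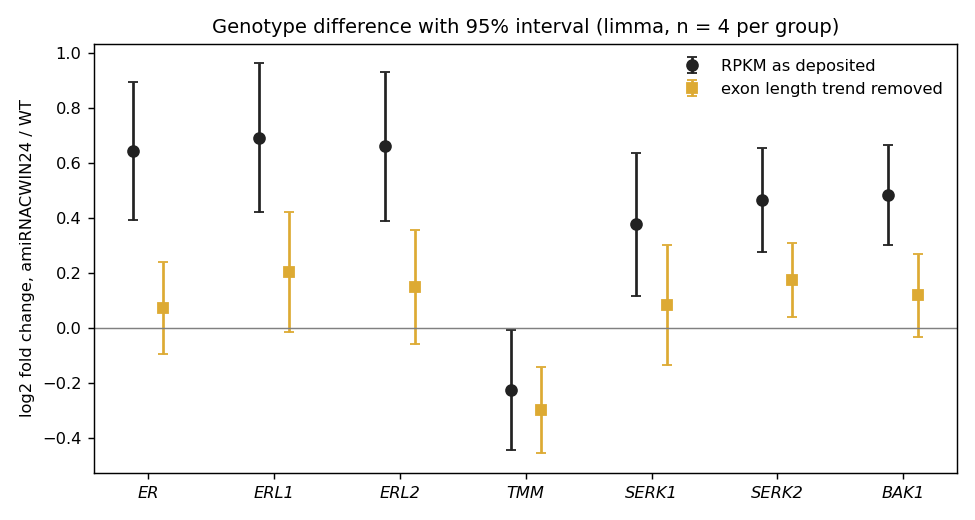
Log2 fold change of each gene with its 95% interval from limma (n = 4 per genotype), from RPKM as deposited (black circles) and with the exon length trend removed (yellow squares). The kinases go from 0.38 to 0.69 down to 0.074 to 0.20, and TMM from -0.22 to -0.30.

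The authors' deposited table gives the same directions. Its log2 fold changes are 0.55 for ER, 0.64 for ERL1, 0.59 for ERL2, 0.39 for SERK2 and 0.41 for BAK1, with FDR values of 5.7e-05 to 0.0085. For SERK1 the authors' deposited table has 0.31 with an FDR of 0.072, and for TMM -0.33 with an FDR of 0.061. SERK1 therefore passed a threshold of 0.05 in limma and not in that table.

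The profile over the 8 libraries was compared with every other tested gene by the root mean square difference of log2 values centred on each gene's mean. The genotype difference and the length trend were left in these values, so a small difference can come from them alone. The genes nearest to ER were the retinoblastoma gene RBR1 (difference 0.0246) and AT5G06670 (0.0251), and ERL2 (0.0422) was the seventh. RBR1 and AT5G06670 are long too (3850 and 3736 nt), with log2 fold changes of 0.64 and 0.67. For ERL2 the nearest was ER itself, followed by AT5G06670 (0.0487), and for ERL1 they were ABCB13 (0.0495) and ERL2 (0.0504). From ER, ERL1 was at place 144 (0.0757). The SERK genes were less like each other, and from SERK2, BAK1 was at place 1599 (0.118) and SERK1 at place 4149 (0.174). The nearest genes were PSP (0.0384) and AT5G43680 (0.0476) for TMM, NMAT2 (0.0343) and NUP93B (0.0433) for SERK1, DGK2 (0.0329) and AT1G50730 (0.0341) for SERK2, and AT1G22960 (0.0431) and AT3G19540 (0.04998) for BAK1.

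The other genes listed here are called pathway genes for short. They include receptors and regulators that work with SERK proteins outside ERECTA signalling, such as BRI1 and FLS2. Of 47 tested, 28 were higher, 4 lower and 15 did not pass. Their median log2 fold change was 0.44 against 0.066 over all tested genes, of which 29.4% were higher and 21% lower. With the length trend removed 16 were higher and 1 lower, with a median of 0.18 against 0.029, where 15.1% and 14.2% of all genes were called. The lists are given by role, each beside the share called among tested genes of the length class that holds the list's median exon length. For list counts with the length trend removed, the shares over all genes are these 15.1% higher and 14.2% lower.

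The EPF and EPFL peptides are the ligands of the ERECTA receptors, and their genes are short (median 866 nt). Of 11 genes 9 were tested, of which 0 rose, 4 fell and 5 missed the threshold, where 2.32% of genes of that length class were higher and 64.4% lower. EPFL9 (STOMAGEN), which promotes stomata, fell from 13.6 ± 1.60 to 9.45 ± 1.16 RPKM (log2 -0.50; limma adjusted p = 0.0036). EPFL3 fell from 5.28 ± 0.978 to 3.15 ± 0.365 RPKM (log2 -0.65; limma adjusted p = 0.0038). EPF2, which restrains entry into the stomatal lineage, fell by 0.59 and EPFL6 (CHALLAH) by 0.30 on the log2 scale (limma adjusted p = 0.022 and 0.024). With the length trend removed these falls did not pass, the median of the list turned from -0.30 to 0.18, and 2 genes rose, EPFL1 (log2 0.52) and EPFL5 (log2 0.64), which are named for that count after their values were seen. Of the genes not tested, EPFL7 stood at 0.425 ± 0.134 and 0.293 ± 0.1001 RPKM, under the filter, and EPFL8 was at 0 reads in all 8 libraries.

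Of 12 genes of the MAP kinase cascade and its regulators 10 were tested, of which 8 rose, 0 fell and 2 missed the threshold. The median exon length was 2768 nt, a class in which 68.8% of genes were higher. YDA, the MAP kinase kinase kinase of the pathway, stood at 11.6 ± 1.25 RPKM in WT and rose to 20.3 ± 1.22 RPKM (log2 0.79; limma adjusted p = 0.00017). The phosphatase gene MKP1 rose by 0.63, and BSL1 and BSL2, genes of the BSU1-like phosphatases, by 0.68 and 0.57 on the log2 scale (limma adjusted p = 0.00058, 0.00064 and 0.00076). The genes that did not pass were MPK6 (40.4 ± 3.37 and 37.7 ± 2.04 RPKM) and MKK5 (11.6 ± 1.49 and 12.5 ± 1.24 RPKM), named after their values were seen, and both overlap an annotated gene. After removal of the length trend 6 of the 10 rose, against 15.1% of all tested genes. YDA (log2 0.25), MKP1 (0.22) and BSL1 (0.24) were among them, while BSL2 did not pass (log2 -0.015). BSL1 overlaps annotated genes.

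Of 6 stomatal lineage regulators 3 rose, 0 fell and 3 did not pass, where 51% of genes were higher in the class of their median length, 2319 nt. FAMA, which acts in the last division of the guard cell lineage, stood at 4.78 ± 0.379 RPKM in WT and rose to 6.94 ± 0.193 RPKM (log2 0.50; limma adjusted p = 0.0010), and it also rose with the length trend removed (log2 0.25; limma adjusted p = 0.030). SCRM2 and the protease gene SDD1 rose by 0.35 and 0.46 on the log2 scale (limma adjusted p = 0.021 and 0.025), calls that ended with the length trend removed, and ICE1 did not pass (log2 0.22; limma adjusted p = 0.065). SPCH, which starts the lineage, stood at 3.00 ± 0.785 and 3.99 ± 0.834 RPKM and MUTE at 1.30 ± 0.319 and 1.20 ± 0.133 RPKM, and neither passed, and both are named after their values were seen.

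The other SERK genes differed from each other, though stretches of read length shared by SERK4 and SERK5 were not searched for. SERK4, which acts redundantly with BAK1, stood at 8.72 ± 0.968 RPKM in WT and rose to 14.8 ± 2.78 RPKM (log2 0.72; limma adjusted p = 0.0012), and it also rose with the length trend removed (log2 0.44; limma adjusted p = 0.020). SERK5 stood at 4.94 ± 0.264 and 5.21 ± 0.701 RPKM and did not pass (log2 0.065; limma adjusted p = 0.63). The exons of SERK4 and SERK5 are 2502 and 2333 nt long, both in the class of 2220 to 2580 nt. In that class 51% of genes were higher and 5.42% lower.

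Of 13 receptors that pair with SERK proteins 12 were tested, of which 11 rose and 0 fell, and BRL3, named after its value was seen, missed the threshold. BRI1, the brassinosteroid receptor, went from 19.2 ± 1.84 to 38.4 ± 3.40 RPKM (log2 0.98; limma adjusted p = 5.7e-05), PSKR2, a receptor of the phytosulfokine type, from 3.98 ± 0.237 to 7.99 ± 1.15 RPKM (log2 0.91; limma adjusted p = 0.00018), and the danger peptide receptors PEPR1 and PEPR2 rose by 0.66 and 0.86 on the log2 scale (limma adjusted p = 0.00026 and 0.00049). These are long genes, with a median of 3810 nt, and 87.9% of genes in that length class were higher. Once the trend was removed 2 of the 12 rose and 1 fell, against 15.1% and 14.2% of all tested genes. BRI1 (log2 0.35, limma adjusted p = 0.0039) and PSKR2 (log2 0.38, limma adjusted p = 0.015) rose, and BRL3 fell (log2 -0.38, limma adjusted p = 0.011). PEPR2 and BRL3 overlap annotated genes and are uncertain.

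Of 9 SERK regulators and substrates 8 were tested, of which 5 rose, 0 fell and 3 missed the threshold. In the class of their median length, 2086.5 nt, 33.4% of genes were higher. The 5 that rose have longer exons (2084 to 2844 nt) than the 3 that missed the threshold (1342 to 1989 nt). BIR1 falls in a class where 68.8% of genes were higher, and BIR2 and BIR3 in one where 51% were. BIR1, a kinase that restrains BAK1, stood at 13.9 ± 1.10 RPKM in WT and rose to 28.1 ± 6.06 RPKM (log2 0.97; limma adjusted p = 0.00040), its relatives BIR2 and BIR3 by 0.44 and 0.48, and SOBIR1, a partner of receptor-like proteins, by 0.88 on the log2 scale (limma adjusted p = 0.0018, 0.0019 and 0.0046). BIR1 (log2 0.61), BIR2 (0.22), BIR3 (0.22) and SOBIR1 (0.72) also rose with the length trend removed, with limma adjusted p of 0.014 to 0.046. SOBIR1 overlaps an annotated gene. The plot of pathway genes by role shows these values.

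**Figure D5:**
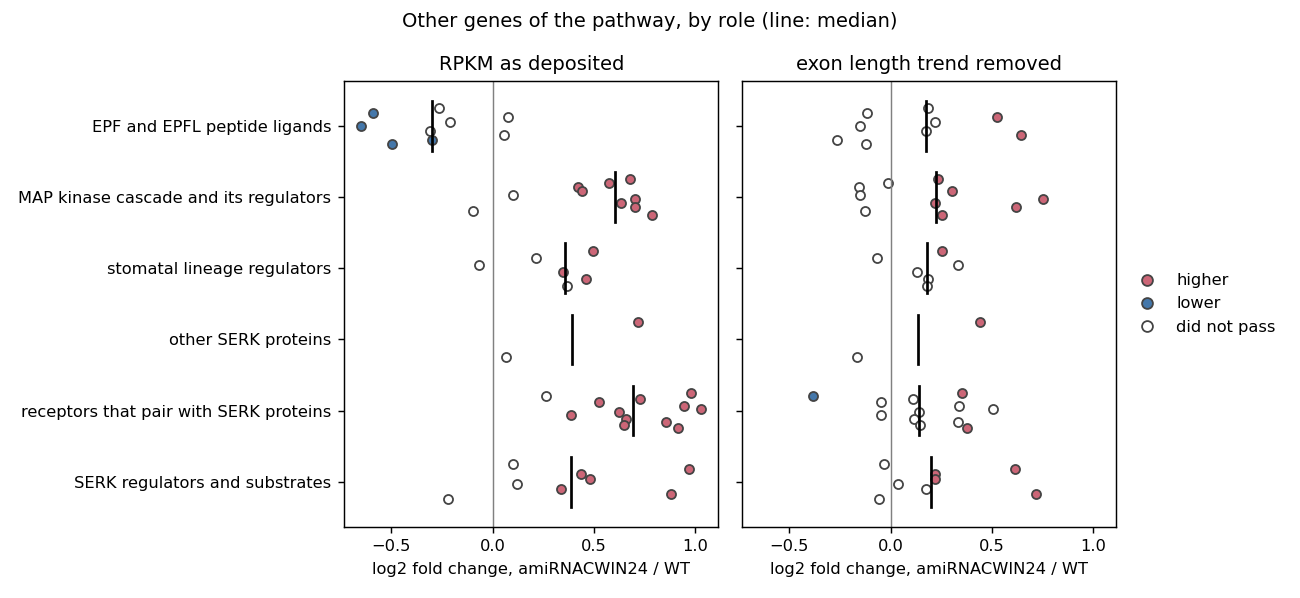
Log2 fold change (amiRNACWIN24 over WT) of each tested pathway gene by role, from RPKM as deposited (left) and with the exon length trend removed (right); filled points passed limma with Benjamini-Hochberg adjustment, and lines are medians. The ligand median goes from -0.30 to 0.18, and that of the receptors that pair with SERK proteins from 0.69 to 0.14.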

How the data were processed

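Total RNA of pooled floral buds was sequenced as 125 bp paired ends on an Illumina HiSeq instrument, per the labels' protocols, with TAIR10 as genome build, per the submitters' processing notes. Which aligner, counter, strand setting and annotation were used is not given in the sources used here. The authors deposited RPKM values with 1 column per library, and a second table comparing the genotypes by log2 fold change, a signed fold score and p-values, per the file headers.

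Low RPKM values came out as whole reads, within 0.05 reads, for 99.6% to 99.7% of values per library. The coordinates of all 7 genes in the deposited table matched the TAIR10.1 annotation from RefSeq. Values were analysed as log2(RPKM + 0.5), which understates the change of low genes, in the 19082 genes whose mean reached 1 RPKM. The genotypes were set against each other in limma 3.58.1, run in R 4.3.3 (eBayes with a trend, two-sided, Benjamini-Hochberg over all genes tested, threshold 0.05), and single genes also with an exact permutation test over 70 arrangements. The main limma fit was tested on simulated reads with known fold changes and no length trend. Removal of the length trend was not simulated. Exon length trends were removed per library with a natural spline of 4 degrees of freedom. The labels give biological replicates but no batch. Python 3.11.15, numpy 2.4.6, scipy 1.17.1, pandas 2.3.3 and matplotlib 3.10.9 were used for other values. The members, gene lists and alternatives were chosen with earlier results of these data known. Named pathway genes are up to 4 per list with the smallest p, and the 2 most alike genes for each of the 7; others are marked in the text as named after their values were seen. Marker lists are given as sums, with counts of calls for late pollen, tapetum and ovule genes and single log2 values for ovule genes. Depth limits low genes: 1 read was worth 0.0086 to 0.021 RPKM in the 7 genes.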

Additional observations from a re-analysis of the deposited data

Results flagged for a closer look

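The level of ERL1 in amiRNACWIN24 replicate 4, 13.35 RPKM, stood apart from the other 3 transgenic libraries (10.1 to 10.3 RPKM) by Dixon's test at the 95% level. It was the only flag in 14 groups of 4 libraries, and chance flags about 1 in 20 groups. Without that library ERL1 still rose, at log2 0.60.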

How the results depend on the processing

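Directions of the 7 genes were the same under all alternatives run. Removing the exon length trend ended the calls of ER (log2 0.074), ERL1 (0.20), ERL2 (0.15), SERK1 (0.084), SERK2 (0.18) and BAK1 (0.12), leaving 0 higher; the cause of the trend was not tested. TMM passed under that removal (log2 -0.30), median-of-ratios scaling (-0.28), quantile normalization (-0.35) and voom on recovered reads (-0.26), with 1 lower in each. SERK1 did not pass with quantile normalization (0.26) or without WT replicates 1 and 2 (0.19). With 1 library left out, log2 ran from 0.296 to 0.444 for SERK1 and from -0.28 to -0.17 for TMM, with 5 or 6 kinases higher and 0 or 1 of the 7 genes lower. Leaving out overlapping genes removed 4 members, and 2 were higher of the 3 left, with 2635 genes lower overall by fewer genes tested. At least 1.5-fold, 3 members were higher, and 2121 genes rose and 1664 fell. With the length trend removed 2877 genes rose, and 16 pathway genes rose and 1 fell. Of pathway genes 1 fell at a mean of at least 5 RPKM, and 2 to 4 fell with 1 library left out. Replicate numbers did not pair the libraries (correlations of same-numbered deviations -0.27, 0.14, -0.32 and 0.53), and with the replicate block 6 members were higher and 0 lower, 5581 genes rose and 3590 fell.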
